A study of Drosophila melanogaster with 2 samples.

Results

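The genes CrebA, CrebB, Atf-2, cnc, maf-S, tj, gt and CG7786 encode basic leucine zipper (bZIP) transcription factors of the CREB, CNC, Maf and other classes, and binding of the related factor Slbo was examined at these 8 of 13945 protein-coding genes on the chromosome arms. They were taken by symbol, and a peak was counted for a gene when its summit, the highest point of the peak, lay in the gene body or within 2 kb upstream. ChIP-seq, the sequencing of DNA precipitated with a chromatin protein, was done on slbo-GFP embryos of Drosophila melanogaster collected whole between 8 and 24 h, whose insertion targeting slbo gives an eGFP-tagged Slbo protein. The descriptions state that an anti-GFP antibody was used, while the antibody field names slbo. All data came from 1 group with 2 biological replicates. Control libraries were not used here, so none of the values below has a background measured in embryos without the insertion.

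The bZIP factors bind DNA as dimers, through a basic region next to a leucine zipper, and the zipper decides which members of the family pair with each other. CREB proteins carry transcriptional responses to cyclic AMP, and the related CrebA raises genes of the secretory pathway in glands of the fly embryo. CNC proteins bind with small Maf partners and act in head segmentation and in the response to oxidative stress, and large Maf proteins, to which Traffic jam (tj) belongs, act in tissue development. Slbo, the bZIP protein precipitated here, is the fly C/EBP protein. In whole embryos a peak gives no information on which cells were bound.

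The sequence at the summit is shown first for the strongest peaks of CrebB, cnc and CrebA, for the only peak of tj, and for the peak at the upstream end of cnc. Each is a window of 101 bp centred on the summit, read 5′ to 3′ on the strand of the gene from the RefSeq copy of the dm6 genome. Capitals mark matches on either strand to the C/EBP-type words TTGCNNAA and TTACNNAA or to the GAGA word GAGAG. The other words searched, which are named with the motif counts further on, were in none of the 7 windows. Both of the 21 summits with a C/EBP-type word are among the 7, so these windows hold such words more often than the 21 do. The peaks of Atf-2 and maf-S, which had none of the words, are not shown. The CrebB and CrebA summits shown lie in introns, and those of tj and of the upstream end of cnc lie outside the gene. The cnc summits at 35134 and 36615 bp lie within 500 bp of a start site, a class in which untranslated regions were not told apart.
CrebB, 1909 bp inside the gene, chrX:18368216-18368316: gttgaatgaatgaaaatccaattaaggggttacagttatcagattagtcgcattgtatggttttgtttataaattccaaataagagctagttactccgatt
CrebB, 929 bp inside the gene, chrX:18367236-18367336: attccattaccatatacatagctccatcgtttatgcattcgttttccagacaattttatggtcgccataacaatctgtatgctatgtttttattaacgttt
cnc, 36615 bp inside the gene, chr3R:23190046-23190146: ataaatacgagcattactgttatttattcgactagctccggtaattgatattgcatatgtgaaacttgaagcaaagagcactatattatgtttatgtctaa
cnc, 35134 bp inside the gene, chr3R:23191527-23191627: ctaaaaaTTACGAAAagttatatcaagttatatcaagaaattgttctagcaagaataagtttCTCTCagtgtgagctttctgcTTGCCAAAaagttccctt
cnc, 51 bp upstream of the gene, chr3R:23226712-23226812: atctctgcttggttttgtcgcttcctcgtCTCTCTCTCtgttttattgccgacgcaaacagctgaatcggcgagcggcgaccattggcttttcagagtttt
CrebA, 2773 bp inside the gene, chr3L:15538118-15538218: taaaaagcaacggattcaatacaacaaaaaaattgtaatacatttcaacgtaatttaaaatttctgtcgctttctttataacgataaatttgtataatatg
tj, 943 bp upstream of the gene, chr2L:19463274-19463374: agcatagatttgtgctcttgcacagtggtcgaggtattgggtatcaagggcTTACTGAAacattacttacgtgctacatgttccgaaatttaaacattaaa

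Of the 8 genes, 6 had at least 1 summit in the series-level thresholded list, the list of 8786 peaks called from both replicates together, and gt and CG7786 had none. The same share over all protein-coding genes was 44.0%. The 6 genes held 21 of the 8714 series-level summits on the arms: 10 in cnc, 5 in CrebB, 3 in CrebA and 1 each in Atf-2, maf-S and tj. In the thresholded list of replicate 1 alone 6 of the 8 genes had a summit (41.1% of all protein-coding genes), and in that of replicate 2 alone 5 of the 8 had one (33.1%), the gene lost being Atf-2. The summits of the 8 genes numbered 20 in replicate 1 and 11 in replicate 2 (mean 15.5 ± 6.36, SD, n = 2).

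The number of summits in a gene went with its length. Of protein-coding genes up to 1 kb long, the class of maf-S (693 bp) and CG7786 (579 bp), 21.3% had a summit. The share was 34.5% among genes of 1 to 2 kb, the class of Atf-2 (1402 bp) and gt (1855 bp), and 47.5% among those of 2 to 5 kb, the class of tj (3492 bp). It was 66.9% among genes of 10 to 20 kb, which include CrebA (17820 bp) and CrebB (11508 bp), and 78.0% among genes of 20 to 50 kb, which include cnc (41132 bp). The 10 summits of cnc were matched or passed by 50 protein-coding genes (0.359%), the 5 of CrebB by 326 (2.34%) and the 3 of CrebA by 1026 (7.36%). Per 10 kb of gene and upstream sequence there were 3.71 summits in maf-S, 3.70 in CrebB and 2.94 in Atf-2. There were 2.32 in cnc, 1.82 in tj and 1.51 in CrebA. By this density cnc and CrebA stood out less, with 22.4% and 32.0% of protein-coding genes at least as dense. That share was 7.03% for maf-S, 7.13% for CrebB, 14.2% for Atf-2 and 28.5% for tj. For maf-S, Atf-2 and tj the density comes from 1 summit each, so it is set by gene length and is high for any short gene with a summit. The maf-S summit was also nearer to a start site of another gene, CG11110, at 82 bp.

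**Figure D1:**
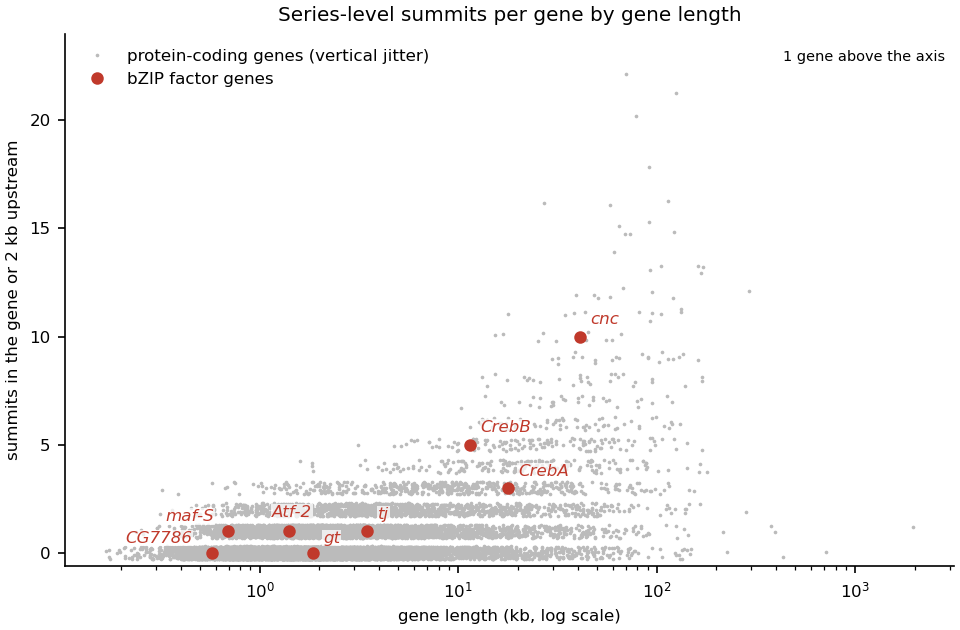
Summits per protein-coding gene in the series-level thresholded list (vertical axis, gene body plus 2 kb upstream, with jitter on the grey points) by gene length in kb on a log axis, with the 8 bZIP factor genes in red and drawn without jitter; 1 gene lies above the axis. The gene cnc stands at 10 summits, CrebB at 5 and CrebA at 3, and gt and CG7786 at 0.

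CrebB (FBgn0265784; dm6, X, 18366357 to 18377864, plus strand) is the fly CREB gene, whose product is known for its part in memory and in responses to cyclic AMP. Its 5 summits held the strongest peaks of the 8 genes, and they lay in the first 4515 bp of the gene. The peak 1909 bp inside the gene had a series-level signal of 377.1, rank 1024 in the list, with 207.7 in replicate 1 and 186.3 in replicate 2. That at 929 bp had a series-level signal of 366.1, rank 1074, with 225.1 in replicate 1 and 133.9 in replicate 2. Both lay in introns, 1705 and 725 bp from the nearest CrebB start site, and both were in the thresholded list of each replicate. The signal is the value the authors deposited for each peak, and since it is not stated to be scaled between lists, only its order within a list is read here.

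The other 3 CrebB peaks were weaker. One was 110 bp inside the gene, in the first exon and 94 bp before the start site shared by CrebB-RI, CrebB-RJ and CrebB-RO (series-level signal 128.7, with 57.8 in replicate 1 and 59.8 in replicate 2). A peak at 1467 bp lay between the strong pair, with a series-level signal of 73.4, and was also in both thresholded replicate lists. The last, at 4515 bp, lay 112 bp before the start site of CrebB-RM, CrebB-RN, CrebB-RQ and CrebB-RR, and had a signal of 115.8. It had 81.4 in replicate 1 and was thresholded there, and 39.5 in replicate 2, where its score of 794 was below the lowest score of the thresholded lists, 830. A further peak at 3224 bp (signal 71.9) was in the conservative list of both replicates only, and the series-level ranked list gives it a score of 553.

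**Figure D2:**
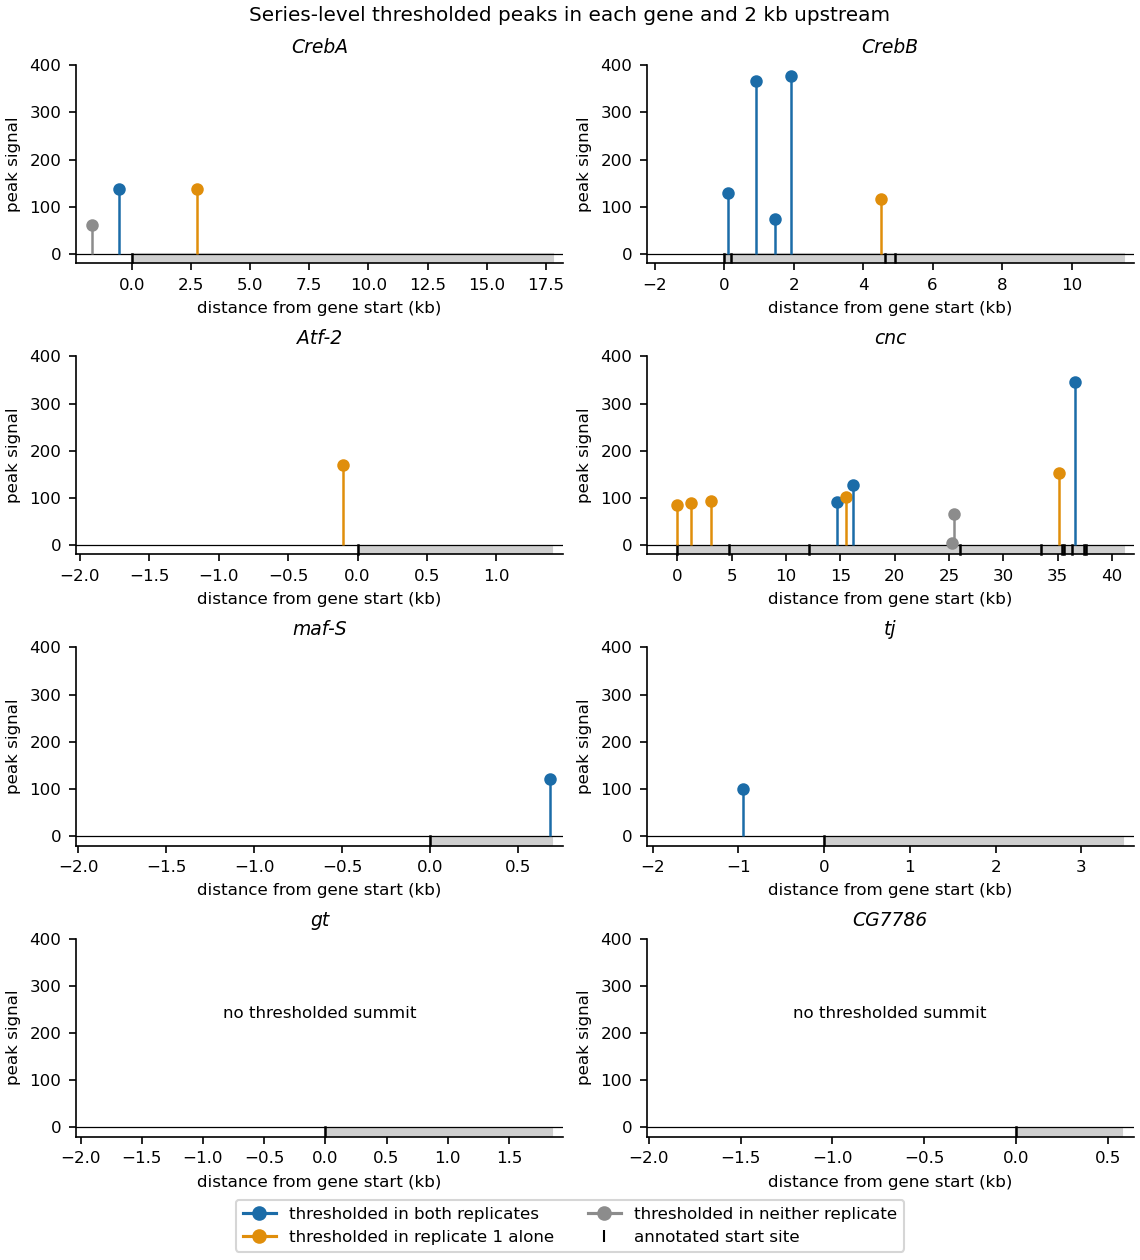
Series-level peak signal (vertical axis, no unit) against distance from the gene start in kb, in the direction of transcription, for the 8 genes, each with its own horizontal scale. Grey bars are the genes, black ticks the annotated start sites, and colours show in which replicate's thresholded list the peak was also found: CrebB has 4 of its 5 peaks in both, cnc 3 of 10.

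CrebA (FBgn0004396; dm6, 3L, 15535395 to 15553214, plus strand) encodes the CREB3-type factor of secretory gland development. It had 1 summit in an intron, 2773 bp inside the gene, and a pair upstream of its only start site, at 550 and 1693 bp. The intron peak had a series-level signal of 137.2 (rank 3801), with 82.7 in replicate 1, where it was thresholded, and 56.9 in replicate 2, where its score was 56. The peak 550 bp upstream had 136.9 (rank 3813), with 83.9 in replicate 1 and 65.7 in replicate 2, and was thresholded in both. The peak 1693 bp upstream had only 61.1 (rank 8328), and in neither replicate was it thresholded (32.9 in replicate 1 and 33.1 in replicate 2). The next thresholded summit upstream, at 2637 bp, had a signal of 158.6 and lay beyond the 2 kb limit. The strongest peak of CrebA that missed the threshold, 5995 bp inside the gene, had a signal of 59.8 and a score of 810.

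Atf-2 (FBgn0265193; dm6, 2R, 24870108 to 24871509, plus strand) encodes the ATF2-type factor that the p38 stress kinase acts on. Its only summit lay 105 bp upstream of its start site, with a series-level signal of 169.8 (rank 3002) that was the strongest outside CrebB and cnc. The peak had 134.1 in replicate 1, rank 2134 of 7151, and 32.4 in replicate 2, where its score was 171 and it was not thresholded. It was part of the conservative list. The next thresholded summits were 55324 bp upstream of its start (signal 124.7) and 3352 bp past its end (110.4).

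The CNC gene cnc (FBgn0262975; dm6, 3R, 23185580 to 23226711, minus strand), the fly relative of mammalian Nrf2, has 10 annotated start sites. Its 10 summits spread over 36666 bp, 9 of them inside the gene, and fell into 4 groups by position. The strongest peaks stood near the downstream start sites. That at 36615 bp, 323 bp after the start site of cnc-RE, had a series-level signal of 344.7 (rank 1197), with 191.2 in replicate 1 and 145.9 in replicate 2, and was thresholded in both. That at 35134 bp, 294 bp before the start site of cnc-RG, had 153.0, with 94.9 in replicate 1 and 57.1 in replicate 2, where its score of 666 kept it out of the thresholded list.

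A second group of cnc peaks, at 14663, 15541 and 16205 bp, lay in an intron between 2509 and 4051 bp from the nearest start site, with series-level signals of 90.7, 102.1 and 126.7. The first and last of them were thresholded in both replicates, and the middle one in replicate 1 only. The third group lay at the upstream end of the gene. It had peaks 51 bp before the start site of cnc-RI, cnc-RM and cnc-RN, and at 1222 and 3091 bp, with series-level signals of 84.2, 89.9 and 92.7. All 3 were thresholded in replicate 1 and in none of them did replicate 2 pass (signals 39.6, 37.1 and 40.8). The last group was an overlapping pair at 25243 and 25455 bp, before the start site of cnc-RB, with series-level signals of 3.52 and 65.2. Both had a score of 833, just above the lowest score in the list, and neither was in a thresholded replicate list or in the conservative list. Within 1 kb of a cnc start site there were 5 summits, and within 500 bp there were 3. The next thresholded summit upstream, at 2137 bp from the gene start, had a signal of 153.1 and lay just outside the 2 kb limit.

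The small Maf gene maf-S (FBgn0034534; dm6, 2R, 20640976 to 20641668, plus strand) encodes the dimer partner of Cnc. Its single series-level summit lay 684 bp after its start site, in its 3′ untranslated region, and only 82 bp from the start site of the next gene, CG11110. The peak had a series-level signal of 120.9 (rank 4388), with 74.2 in replicate 1 and 46.7 in replicate 2, and was thresholded in both. When each summit was given only to the gene of the nearest start site, maf-S had none and 5 of the 8 genes kept one. In replicate 1 alone a second summit stood 42 bp upstream of the maf-S start site, with a signal of 45.9 and rank 6420 of 7151. The series-level ranked list holds a peak there of signal 67.7 with a score of 826, just under the threshold.

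The large Maf gene tj (traffic jam; FBgn0000964; dm6, 2L, 19464267 to 19467758, plus strand) acts in the somatic cells of the gonad and in follicle cells. Its only summit lay 943 bp upstream of its start site in intergenic sequence, with a series-level signal of 99.3 (rank 5401). It was thresholded in both replicates, with 43.0 in replicate 1 and 60.8 in replicate 2. Those are rank 6672 of 7151 in replicate 1 and 3726 of 5445 in replicate 2. This is the tj window shown with the sequences, and the nearest other thresholded summits were 10716 bp upstream of the start and 22532 bp beyond the end of the gene.

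The gap gene gt (giant; FBgn0001150; dm6, X, 2427113 to 2428967, minus strand), which patterns the early embryo, had no thresholded summit in any of the 4 thresholded lists. The ranked list of the series holds 5 peaks in its reach, the strongest with a signal of 29.0 and a score of 38, against a median signal of 24.9 over all peaks of that list on the arms. In the replicates' own ranked lists the strongest had a score of 151 in replicate 1 and 22 in replicate 2. The nearest thresholded summit lay 15033 bp upstream (signal 119.7). The short bZIP gene CG7786 (FBgn0034096; dm6, 2R, 16234358 to 16234936, minus strand) likewise had none. Its strongest ranked peak had a signal of 48.3 and a score of 200, and the nearest thresholded summit was 3524 bp past the end of the gene (signal 66.4). The strongest peak in its reach in each replicate's own ranked list had a signal of 26.5 in replicate 1 and 27.6 in replicate 2, and was not matched to the series-level peak. A gene without a thresholded peak is not shown to be unbound, since the depth of the libraries is unknown.

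Across the 21 peaks, 10 overlapped a thresholded peak of both replicates (47.6%, 95% Wilson interval 28.3 to 67.6), against 53.7% of all 8714. Replicate 1 alone supported 8 (38.1%, interval 20.8 to 59.1; 22.6% of all peaks), replicate 2 alone supported 0 (upper bound 15.5%; 5.85% of all peaks), and 3 had no thresholded counterpart in either (14.3%; 17.8%). The intervals allow for counting error alone, and peaks of 1 gene are not independent of each other. The 10 supported by both had series-level signals of 73.4 to 377.1, the 8 of replicate 1 alone 84.2 to 169.8, and the 3 of neither 3.52 to 65.2. Of the 11 peaks outside the thresholded list of replicate 2, 7 belonged to cnc, 2 to CrebA and 1 each to CrebB and Atf-2. Replicate 2 had fewer thresholded peaks over the whole genome, 5445 against 7151 in replicate 1, and its part in the counts for these genes was not tested. Each of the 21 peaks had a counterpart in both ranked lists, with its summit 0 to 59 bp away in replicate 1 and 2 to 89 bp away in replicate 2. The ranked lists are long, with 108544 peaks on the arms in replicate 1 and 115153 in replicate 2. The same share over all 8714 peaks was not computed, so no agreement between replicates is read from these counterparts.

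**Figure D3:**
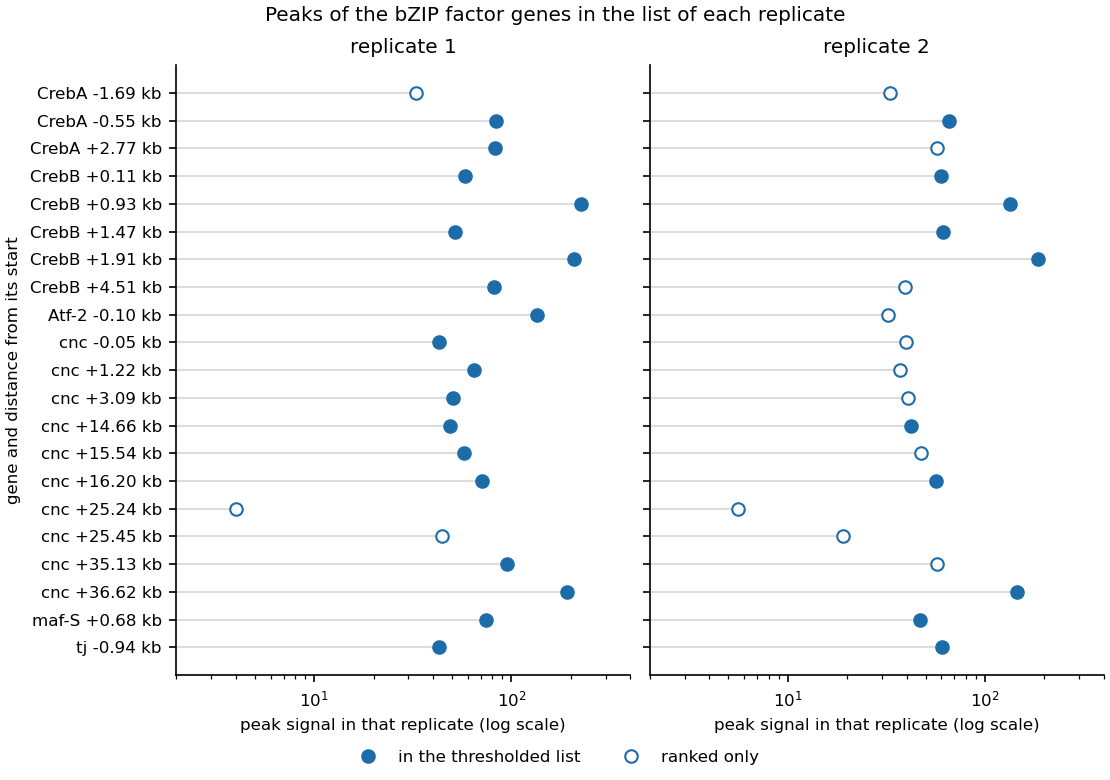
Signal of each of the 21 peaks in the ranked list of replicate 1 (left) and replicate 2 (right), on log axes, labelled by gene and distance from the gene start. Filled points are in that replicate's thresholded list: 18 in replicate 1 and 10 in replicate 2, with Atf-2 filled only in replicate 1.

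The peaks of these genes were of ordinary strength for the list. Their signals had a median of 115.8 (lowest 3.52, highest 377.1), against 121.2 over all 8714 peaks, whose highest was 5563.9. Only the strong pair of CrebB and the strongest of cnc were in the top signal quintile, at 268.4 or more. Peaks narrower than the usual 330 bp were 5 of 21 (23.8%; 24.2% of all peaks). These were the 4 CrebB peaks found in both replicates, between 110 and 1909 bp inside the gene, 82 to 203 bp wide, and the cnc peak at 36615 bp, 195 bp wide. Across the whole list 89.3% of peaks in the top quintile and 0.402% of those in the lowest were that narrow, so the CrebB peak of 82 bp with a signal of 73.4 was among the few narrow ones of low signal.

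By place, 7 of the 21 summits (33.3%, interval 17.2 to 54.6) lay within 500 bp of a start site of any gene, against 46.1% of all summits. Farther than 500 bp from any start site, introns held 11 (52.4%, interval 32.4 to 71.7; 35.3% of all) and intergenic sequence 3 (14.3%; 13.9% of all). At that distance none lay in a coding exon (upper bound 15.5%; 2.48% of all). Summits within 500 bp of a start site were not sorted into exons and introns. Within 1 kb of one of its own start sites, 6 of the 8 genes had a summit, against 36.4% of protein-coding genes. That count was 5 when each summit was given only to the nearest start site, a setting not computed for all genes. Within 500 bp 3 of the 8 had one, namely CrebB, Atf-2 and cnc, against 32.0%, a share close to that of all genes. The gene cnc has 10 start sites and CrebB has 4, and the part of their number in these counts was not tested. The summit windows had a median of 61.4% A and T bases, against 63.4% over all summits, and ran between 36.6% at the first exon of CrebB and 77.2% at the CrebA intron peak.

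The C/EBP-type words TTGCNNAA or TTACNNAA were within 50 bp of 2 of the 21 summits (9.52%, interval 2.65 to 28.9), against 17.4% of all summits and 13.7% of windows of equal width to one side of all summits. The interval holds the share of all summits, so no difference is read from it. Counted over the C/EBP, other bZIP and DRE words together, the number was also 2, and it was 1 with 25 bp and 5 with 100 bp to each side. The 2 summits were the cnc peak at 35134 bp, which had TTACGAAA and TTGCCAAA, and the tj peak, which had TTACTGAA. The strongest peaks of CrebB, cnc and CrebA had none. None of the 21 summits had the cyclic AMP response element TGACGTCA (0.126% of all summits), the PAR-type word TTACGTAA (0.126%), which is itself a case of TTACNNAA, or the AP-1-type word TGANTCA (2.32%). The CNC-Maf-type word TGACNNNGC (2.52% of all), the Maf-type word TGCTGAC (1.10%) and the DNA replication-related element TATCGATA (2.40%) were likewise at none of the 21. The word GAGAG, added to the search after the sequences were seen, was at 3 of the 21 (14.3%, interval 4.98 to 34.6; 10.4% of all summits and 13.5% of flanks). These were the first exon of CrebB, with 4 matches counted with overlap, the upstream end of cnc, with 3, and the cnc peak at 35134 bp, with 1. All words were searched on both strands, and a match or its absence is a description of these letters.

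Of 13 other bZIP genes, 11 had a summit by the same rule, against 44.0% of all protein-coding genes, and Atf6 and REPTOR-BP had none. In replicate 1 10 of the 13 had one, against 41.1%, and in replicate 2 8 of the 13 had one, against 33.1%. Of the 13, 8 were longer than 5 kb, and the classes of that length had shares of 60.3 to 83.4% over all genes. Pdp1 (55912 bp), a PAR-type clock factor, had 10 summits in its body and 2 kb upstream, as many as cnc. Atf3 (32545 bp) had 6, with a strongest signal of 1751.7. Irbp18 (741 bp), a dimer partner of fly C/EBP-type proteins, had 2, with a strongest signal of 376.6. That is 7.3 summits per 10 kb of the Irbp18 gene and upstream sequence. Beside CrebB, 8 of 9 CREB cofactors and kinases had a summit, against 44.0% of all protein-coding genes, and all 9 were longer than 5 kb. The count was 7 of 9 in replicate 1, against 41.1%, and 5 of 9 in replicate 2, against 33.1%. CASK, counted among the 8, had a strongest signal of 65.9 and no thresholded summit in either replicate. Among the 8 were the coactivator nej (615.0), the kinase Sik3 (411.5, with 8 summits) and Pka-R1, a regulatory subunit of protein kinase A (233.4). The exception was CaMKII. The part of gene length in the counts of these lists was not tested.

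**Figure D4:**
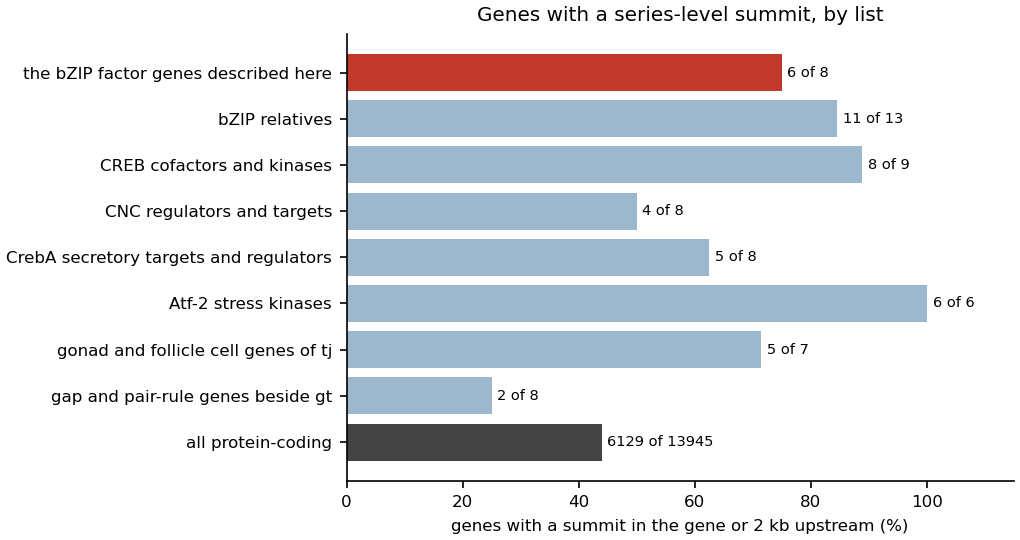
Share of genes with a series-level summit in the gene body or 2 kb upstream (horizontal axis, percent) for the 8 bZIP factor genes, for 7 lists of relatives and partner genes, and for all protein-coding genes, with the counts beside the bars. The shares run from 2 of 8 for the early patterning genes to 6 of 6 for stress kinases, and no test was run on them. The early patterning list is labelled gap and pair-rule genes, but its genes with a summit, bcd and cad, are neither.

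Around cnc and maf-S, 4 of the 8 genes listed as regulators and targets had a summit. That share is close to the 44.0% of all protein-coding genes, which is also the background of the lists that follow. Keap1, the inhibitor of the Cnc stress response, had 3 summits and a strongest signal of 522.3. Gclm, a subunit of the enzyme of glutathione synthesis, had 1 (241.2). The long gene rdx (64997 bp) had 9 (447.9), and its link to Cnc was not tested here. GstD1, a reporter gene of the Cnc response, had 2 summits in each replicate's thresholded list and none in that of the series. Of the CrebA list of secretory genes and their regulators, 5 of the 8 that could be matched had a summit, including Sec61alpha (514.6), fkh (134.9) and SrpRbeta, whose promoter summit had 126.4. All 6 stress kinases upstream of Atf-2 had one, with p38a at 1034.3, msn at 436.8 for its promoter peak, and p38b at 215.0. The p38a peak also lay in reach of its neighbour p38c. Of the gonad and follicle cell genes listed beside tj, 5 of 7 had one, including Pax (717.6), piwi (414.4) and shg (155.3). Of these 7, 6 were longer than 5 kb, and the classes of that length had shares of 60.3 to 83.4% over all genes. Beside gt, 2 of 8 genes of early patterning had one, bcd (379.4) and cad (60.3), neither of them a gap or pair-rule gene. The gap and pair-rule genes of that list, hb, Kr, kni, tll, eve and hkb, had none, in the series-level list or in either replicate.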

How the data were processed

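Peaks were deposited by the authors as lists on dm6 for each of the 2 replicates, for both together (series-level) and as a conservative set, thresholded or ranked by the irreproducible discovery rate, per the labels and the descriptions among the deposited files. No aligner or peak caller is named in the labels or files used here. The signal column is the peak caller's value as deposited, not stated to be scaled for depth. The score column, as deposited, runs to 1000, with a lowest value of 830 in the thresholded lists. Read counts are not part of the lists, and the depth of each library is therefore unknown.

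The 6 chromosome arms were used, leaving out the Y chromosome and unplaced scaffolds, with gene models of Ensembl release 115 without transposable elements. All 8 genes had the same positions in RefSeq. The reach of a gene was its body plus 2 kb upstream. Replicate peaks were matched by an overlap of 1 bp or more, taking the nearest summit in the ranked lists. Counting was tested on simulated data (Python 3.11.15, pandas 2.3.3). No test between groups was possible with 1 group. The members and lists were chosen with earlier results of these data known. Named partner genes were up to 3 per list, those with the strongest promoter peak. Pdp1, Atf3, Irbp18, CASK, GstD1 and the genes without a summit were picked out after their values were seen. spase22-23 could not be matched, and Prx2540-1 was matched by a synonym. Alternatives were other lists, thresholds, upstream lengths, distances, windows and assignments.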

Additional observations from a re-analysis of the deposited data

How the results depend on the processing

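No paired analysis was possible because there is 1 group. The count of 6 of 8 genes with a summit stayed within 1.5 times under all 11 alternatives, at 4 to 6 genes: 4 with the gene body alone, 5 with nearest-start assignment, with peaks at or above the list's median signal and without summits in reach of another gene (the last chosen after seeing the data). With replicate 1 or replicate 2 left out it was 5 to 6 genes, and the 21 summits were 11 to 20. Over the same pair of settings the 7 promoter summits were 4 to 9, the 11 intron summits 5 to 9, and the 2 summits with a bZIP or DRE word 2 to 3. With peaks at or above the median signal, 10 summits remained in the genes, 4 of them in introns and 1 with such a word, since fewer peaks were counted. A 500 bp distance left 3 of 6 genes with a promoter summit, and a promoter of 1 kb held 12 of the 21 summits. Windows of 25 bp to each side of the summit left 1 summit with a word and windows of 100 bp gave 5, since the length searched changed. The 10 peaks found in both replicates were 7 to 10 under the 5 alternatives tried. Leaving out the cnc peak that overlaps a stronger one, a choice made after seeing the data, gave 20 summits. Unknown depth limits what the absence of a peak at gt and CG7786 can show.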
